A study of Canis lupus familiaris with 34 samples.

Results

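The TGF-beta ligand genes TGFB1, TGFB2 and TGFB3, the receptor genes TGFBR1, TGFBR2 and TGFBR3 and the latent TGF-beta binding protein genes LTBP1, LTBP2, LTBP3 and LTBP4 were followed in mitral valve RNA of 34 Cavalier King Charles Spaniels. These 10 genes were chosen by symbol among the 22035 symbols of the count table, and where a symbol had both a canine RefSeq feature and an aligned human XenoRefSeq feature the canine one was used, which applied to TGFB1. All dogs were privately owned, of about 10 years of age, and euthanized electively. The 19 dogs labelled ctrl (10 females, 9 males) had no congestive heart failure (CHF) and are termed 10y-noCHF; most of them had myxomatous mitral valve disease (MMVD) of a milder stage, so the group is not a group of healthy valves. The 15 dogs labelled case (6 females, 9 males) had MMVD that had progressed into CHF and are termed 10y-MMVD-CHF. The disease arose naturally, no transgene or experimental agent was used, and 1 library was made per dog.

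TGF-beta is secreted as a latent complex in which the cleaved propeptide holds the ligand inactive. LTBP1, LTBP3 and, more weakly, LTBP4 bind that propeptide covalently and anchor the complex to fibrillin-rich matrix, whereas LTBP2 does not bind latent TGF-beta and is a matrix protein of elastic fibres. Released ligand binds the type II receptor (TGFBR2), which recruits and phosphorylates the type I receptor (TGFBR1), and the signal passes on through SMAD proteins. TGFBR3, also called betaglycan, is a co-receptor that presents ligand, and TGFB2 in particular, to TGFBR2. In heart valves the pathway is known for endothelial-to-mesenchymal transition during development and for matrix production by valve interstitial cells.

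All 10 genes passed the filter of a sum of at least 100 counts. Total counts per dog ranged from 46185256 to 82361245, and the lowest count of any of the 10 genes in any dog was 510, for TGFB1. Values are given as CPM, counts scaled to a common library size, with TMM, a factor per library that evens out composition. In the correlation of log2 CPM over all tested features with the other dogs, CAV1047 (10y-MMVD-CHF female) had the lowest median, 0.932, followed by CAV614 (10y-MMVD-CHF male) with 0.946, while the others had 0.950 to 0.966. Markers of valve interstitial cells or fibroblasts were abundant in every dog, with a summed level from 7177 to 16280.5 CPM over 8 genes. Markers of cardiomyocytes were present in very different amounts, from 57.3 to 57754 CPM summed over 18 genes. In a bulk sample fewer cells of a type and less RNA per cell cannot be told apart.

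In canFam4, the assembly of the count table, TGFB1 lay on the plus strand of chromosome 1 from 113414373 to 113428489, and its canine RefSeq feature held 7 exon intervals of 1362 bases in all. LTBP4 lay on the minus strand of the same chromosome from 113908507 to 113932625. TGFB2 lay on chromosome 38 from 14128084 to 14211353 (plus strand), TGFB3 on chromosome 8 from 49237802 to 49261947 (minus strand) and LTBP2 also on chromosome 8 from 47974585 to 48075544 (minus strand). TGFBR1 was located on chromosome 11 from 56499971 to 56560471 (plus strand), TGFBR2 on chromosome 23 from 14144179 to 14234473 (minus strand) and TGFBR3 on chromosome 6 from 57523532 to 57718345 (plus strand). LTBP1 was located on chromosome 17 from 26163906 to 26614695 (plus strand) and LTBP3 on chromosome 18 from 52151906 to 52169048 (plus strand). These 9 human XenoRefSeq features span whole genes, introns included. Reads were counted for every feature they overlapped and without regard to strand. TGFB2-OT1 lay inside TGFB2 on the same strand with 37268 counts, equal to 13.7% of those of TGFB2, so these reads cannot be told apart from TGFB2.

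For none of the 10 genes did the difference between 10y-MMVD-CHF and 10y-noCHF pass the test. With edgeR (quasi-likelihood test, sex as a fixed effect, Benjamini-Hochberg over 19568 features, FDR threshold 0.1) 0 of 10 were called higher and 0 of 10 lower, beside 0.0256% of all features called higher and 0.092% called lower. At an unadjusted p below 0.05 the count was also 0 of 10, where 6.31% of all features passed, and DESeq2 and limma voom likewise called 0 of 10 and gave 0 of 10 at that unadjusted threshold, beside 0.327% and 0.128% of all features called. The median log2 fold change of the 10 genes was 0.019, against 0.0076 over all features. The estimate was above 0 in 8 genes and below 0 in 2.

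Among the ligands, TGFB1 ranged in 10y-noCHF from 16 to 31.9 CPM with a median of 24.6, and in 10y-MMVD-CHF from 13.1 to 32.3 CPM with a median of 25.9. TGFB2 ranged from 62.8 to 194 CPM (median 131) in 10y-noCHF and from 71.4 to 189.6 CPM (median 124) in 10y-MMVD-CHF. In both genes the groups overlapped over almost their whole range. The log2 fold change was 0.03 (SE 0.11, edgeR FDR = 0.986) for TGFB1 and 0.01 (SE 0.12, edgeR FDR = 0.994) for TGFB2.

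TGFB3 had the widest gap between the group medians of the ligands. It ranged from 63.4 to 234 CPM (median 156) in 10y-noCHF and from 85.2 to 257 CPM (median 179) in 10y-MMVD-CHF, and of the 15 dogs with CHF 11 exceeded the median of 10y-noCHF. The group means were 151 ± 48.0 CPM (SD, n = 19) and 173 ± 52.6 CPM (SD, n = 15). The log2 fold change of 0.19 (SE 0.16, edgeR p = 0.262, FDR = 0.915) had a 95% interval from -0.15 to 0.52, which is a fold from 0.903 to 1.44. The difference was thus within the spread between dogs, and a fold above 1.44 lay outside the interval.

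Of the receptors, TGFBR1 ranged from 91.5 to 202 CPM (median 159) in 10y-noCHF and from 80.5 to 234 CPM (median 177) in 10y-MMVD-CHF. Its log2 fold change was 0.15 (SE 0.12, edgeR p = 0.221, FDR = 0.896), the smallest p of the 10 genes. TGFBR2 ranged from 255 to 421 CPM (median 296) in 10y-noCHF and from 194 to 412 CPM (median 297) in 10y-MMVD-CHF. The interval of its log2 fold change was the narrowest of the 10 genes, from -0.16 to 0.16, or a fold from 0.894 to 1.12. TGFBR3 ranged from 212 to 463 CPM (median 288) and from 199 to 414 CPM (median 297), with a log2 fold change of 0.03 (SE 0.11, edgeR FDR = 0.986).

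The 4 LTBP genes also overlapped between the groups. LTBP1 ranged from 253 to 590.0 CPM (median 441) in 10y-noCHF and from 274 to 618 CPM (median 399.9) in 10y-MMVD-CHF, and the log2 fold change was -0.03 (SE 0.12, edgeR FDR = 0.986). LTBP2 ranged from 576 to 2080.1 CPM (median 1374) and from 837 to 2616 CPM (median 1308). Its log2 fold change was 0.13 (SE 0.18, edgeR FDR = 0.953) although the CHF median was the lower one. LTBP3 ranged from 301 to 821 CPM (median 601) and from 371 to 729 CPM (median 579.9), and LTBP4 from 717 to 2806 CPM (median 1485) and from 706 to 2429.8 CPM (median 1539). Their log2 fold changes were 0.01 (SE 0.12) and -0.05 (SE 0.15).

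**Figure D1:**
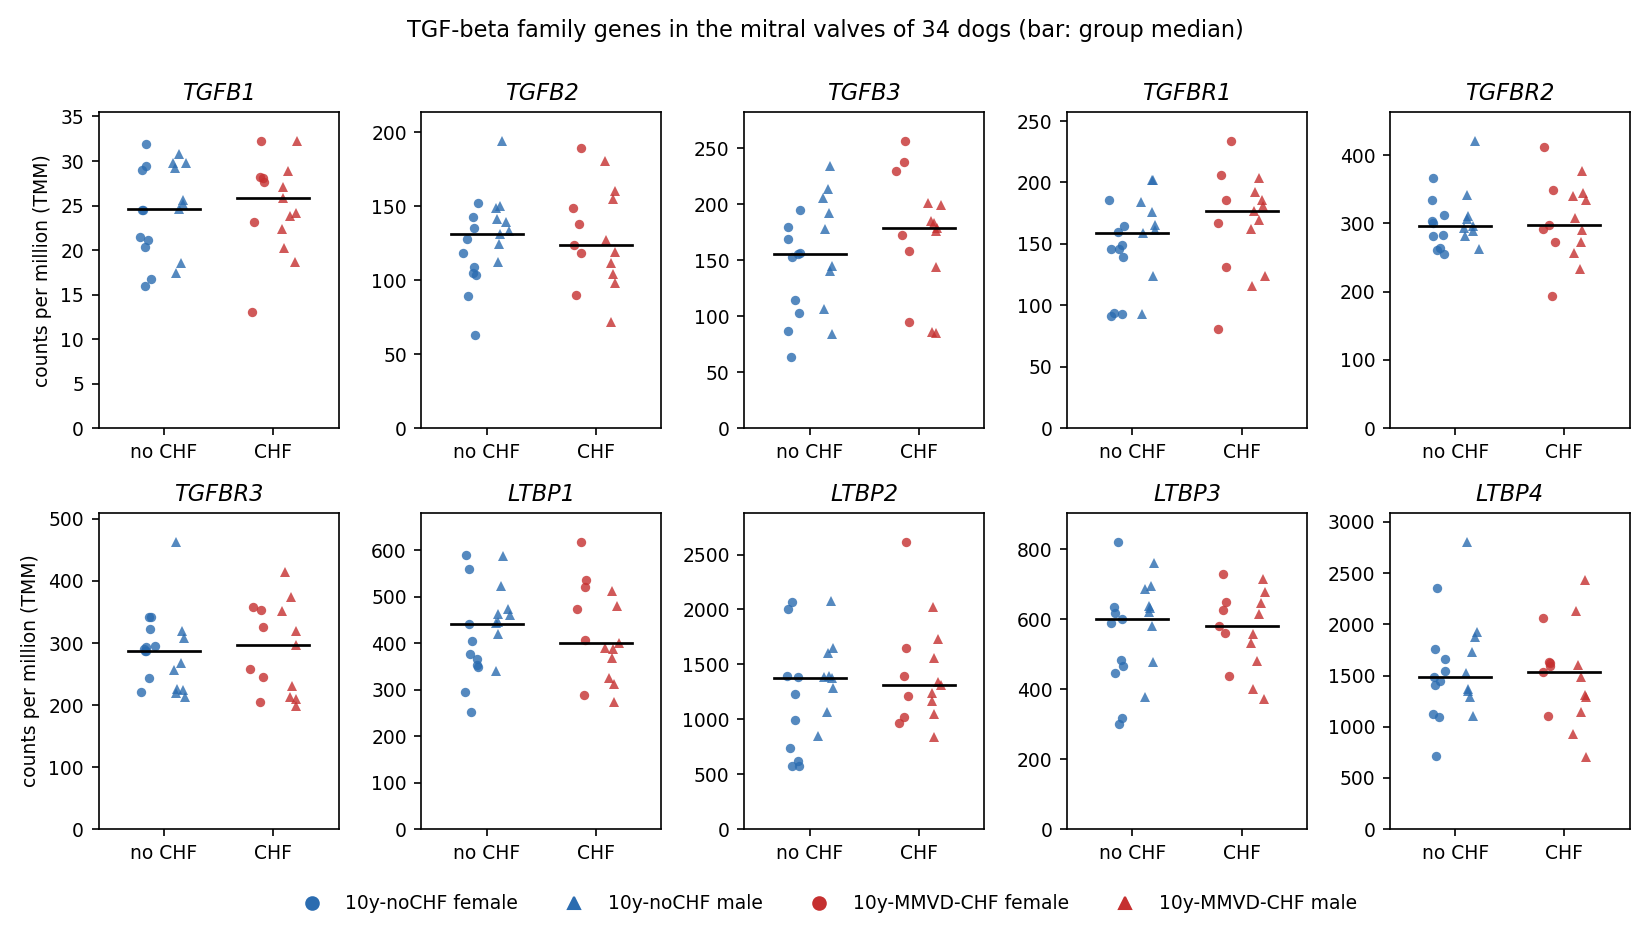
Level of each of the 10 genes in the 34 dogs, in CPM on linear axes that start at 0. Each point is 1 dog, circles are females and triangles are males, and the black bar is the group median; the groups overlap in every panel, with TGFB3 medians of 156 CPM without and 179 CPM with CHF.

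The dogs differed more from each other than the groups did. The spread over dogs, as the SD of log2 CPM after removing the means of the 4 groups of CHF status and sex, was 0.52 for LTBP2 and 0.51 for TGFB3, which placed both at about the 80th percentile (81.0 and 80.1) of 16171 features with a mean of at least 1 CPM. TGFBR2 had the smallest spread of the 10 genes, 0.23, at percentile 39.4, below the median feature at 0.27. LTBP4 (0.45), TGFBR1 (0.39), LTBP3 (0.36), TGFB2 (0.35), TGFB1 (0.33), TGFBR3 (0.33) and LTBP1 (0.32) lay between them.

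A few dogs stood at the ends of several genes. The 10y-MMVD-CHF female CAV1047 was below the median of all dogs in each of the 10 genes and lowest of all in 3, with 13.1 CPM of TGFB1, 80.5 CPM of TGFBR1 and 194 CPM of TGFBR2. This dog also had the highest cardiomyocyte marker mean and the lowest total count. The 10y-noCHF female CAV748 was lowest in TGFB2, TGFB3 and LTBP2, and the 10y-noCHF female CAV1732 in LTBP1 and LTBP3. At the other end, the 10y-MMVD-CHF female CAV1519 was highest in TGFBR1, LTBP1 and LTBP2, and the 10y-noCHF male CAV1939 in TGFB2, TGFBR2, TGFBR3 and LTBP4. The highest dog of TGFB3 was the 10y-MMVD-CHF female CAV1196 with 257 CPM.

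Levels of different genes were compared per kilobase of feature (RPKM). By the median over dogs the order was LTBP4 (62.4 RPKM), LTBP3 (34.8), TGFB1 (18.2), LTBP2 (13.1), TGFB3 (7.07), TGFBR2 (3.28), TGFBR1 (2.70), TGFB2 (1.53), TGFBR3 (1.48) and LTBP1 (0.916). LTBP4 was above LTBP3 in 34 of 34 dogs, and LTBP3 above TGFB1, LTBP2 above TGFB3 and TGFBR1 above TGFB2 in 33 of 34 each. TGFB2 was above TGFBR3 in only 20 of 34 dogs, and the order of levels was not tested. The order rests on the feature lengths, which are whole gene spans except in TGFB1. LTBP1, placed last, has the longest span with 450790 bases, and with its own human XenoRefSeq feature of 14973 bases TGFB1 would fall from place 3 to place 7. Over dogs the TGFB1 features ranked alike (Spearman rho = 0.969, n = 34, as a description, since many reads are shared), and the longer one gave a CHF log2 fold change of -0.0040 (SE 0.10).

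No difference between females and males passed the test. With edgeR 0 of 10 were called, beside 0.143% of all features, and 0 of 10 had an unadjusted p below 0.05, where 2.98% of all features passed. limma voom also called 0 and gave 0 at that threshold. The largest log2 difference of males minus females was 0.14 (SE 0.12) in TGFBR1.

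The CHF difference was then compared between the sexes. The estimate was above 0 in 9 of 10 genes in females and in 2 of 10 in males, and the interaction estimate (males minus females) was below 0 in 9 of 10, with a median of -0.32 against -0.0028 over all features. No interaction was called (0 of 10 with edgeR, beside 0% of all features), 1 of 10 had an unadjusted p below 0.05, where 6.02% of all features passed, and limma voom called 0 with 3 of 10 at that threshold (TGFB2, TGFB3 and LTBP1), where 10.1% of all features passed with limma voom. The 10 genes vary together over dogs, so these signs are not separate observations.

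LTBP1 was the gene with the unadjusted p below 0.05 in edgeR. In females it was 399 ± 107 CPM (SD, n = 10) without CHF and 474 ± 115 CPM (SD, n = 6) with CHF. In males it was 462 ± 68.0 CPM (SD, n = 9) without CHF and 383 ± 77.1 CPM (SD, n = 9) with CHF. The log2 fold change was 0.25 (SE 0.16) in females and -0.27 (SE 0.15) in males, and the interaction was -0.52 (SE 0.22, edgeR p = 0.0225, FDR = 0.815). TGFB3 was 138 ± 43.1 CPM (SD, n = 10) without and 192 ± 61.1 CPM (SD, n = 6) with CHF in females, against 167 ± 50.9 CPM and 160 ± 45.3 CPM (SD, n = 9 each) in males. Its log2 fold change was 0.48 (SE 0.24, edgeR p = 0.0529, FDR = 0.481) in females and -0.06 (SE 0.22) in males. The interaction of -0.54 (SE 0.32, edgeR p = 0.107, FDR = 0.848) did not pass the threshold.

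**Figure D2:**
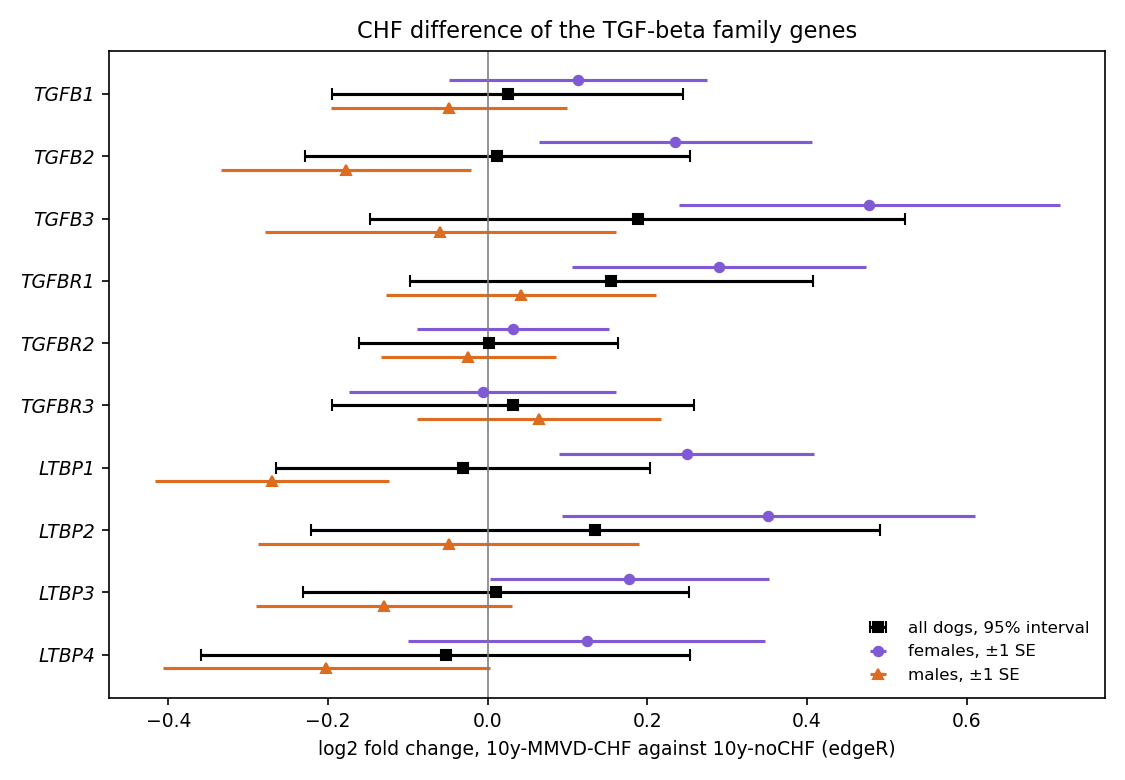
Log2 fold change of 10y-MMVD-CHF against 10y-noCHF for the 10 genes, for all dogs (black squares, 95% interval), females (circles, 1 SE) and males (triangles, 1 SE). Every black interval includes 0, and the females lie to the right of the males in 9 of 10 genes, by 0.52 on the log2 scale in LTBP1.

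Valve samples differed in how much heart muscle RNA they held, and the genes were tested for a slope on the cardiomyocyte marker mean (mean log2 CPM of 18 markers, with sex and CHF status as covariates). The marker mean ranged from -0.297 in the 10y-noCHF male CAV749 to 10.7 in CAV1047, with medians of 6.66 in 10y-noCHF and 7.36 in 10y-MMVD-CHF. With edgeR 7 of the 10 genes were called lower with a higher marker mean and 0 higher, beside 18.3% of all features called lower and 18.9% called higher. The median slope of the 10 genes was -0.057 log2 units per unit of the marker mean, against -0.0060 over all features. Of the 8 markers of valve interstitial cells or fibroblasts 6 were called lower and 0 higher, with a median slope of -0.064. Of the 8 macrophage markers 5 were called lower and 0 higher, with a median slope of -0.058. Of 9 endothelial markers 0 were called lower and 2 higher (median slope 0.012). Smooth muscle markers (6) had 3 lower and 2 higher (median slope -0.023). Higher calls outnumbered lower ones among 5 adipocyte (4 against 0), 4 mast cell (2 against 0) and 3 Schwann cell markers (2 against 1). Of 5 lymphocyte markers 1 was called lower and 0 higher, and red blood cell and melanocyte markers had 0 calls. Whether the marker lists and the 10 genes varied together over dogs was not tested, nor was the part of cell types in the slopes.

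All 3 ligands were called. TGFB3 had the steepest slope of the 10 genes, -0.11 (SE 0.021, edgeR FDR = 0.000106), and the marker mean took up 45.2% of its variance over dogs. TGFB2 had a slope of -0.07 (SE 0.015, edgeR FDR = 0.000429) with 38.5% of the variance so defined, and TGFB1 a slope of -0.05 (SE 0.016, edgeR FDR = 0.0142) with 24%. The 3 dogs with the lowest marker means, CAV749 (-0.297), CAV1196 (1.02) and CAV1049 (1.12), held 206, 257 and 234 CPM of TGFB3. The 3 dogs with the highest marker means, CAV1047 (10.7), CAV865 (9.77) and CAV1114 (9.47), held 94.9, 145 and 115 CPM.

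Of the LTBP genes LTBP3 had a slope of -0.07 (SE 0.016, edgeR FDR = 0.00213), LTBP4 of -0.07 (SE 0.022, edgeR FDR = 0.0103) and LTBP2 of -0.06 (SE 0.027, edgeR FDR = 0.0730). LTBP1, with a slope of -0.04 (SE 0.018, edgeR FDR = 0.120), was not called. Of the receptors TGFBR1 was called (slope -0.05, SE 0.019, edgeR FDR = 0.0524), whereas the slopes of TGFBR2 (-0.01, SE 0.013, edgeR FDR = 0.602) and TGFBR3 (-0.02, SE 0.018, edgeR FDR = 0.412) did not pass. Whether these slopes differ from those of the called genes was not tested. Without CAV1047 the calls of TGFBR1 and LTBP2 were lost and 5 of 10 genes remained called. Over all tested features, markers included, slope calls in either direction also fell, from 7301 with all dogs to 5920 without CAV1047. The call of LTBP2 was also lost with edgeR's filterByExpr and without any 1 of CAV1114, CAV1731, CAV285, CAV373, CAV447, CAV487 and CAV748. With CAV1047 and CAV614 both left out, 6 of 10 were called, beside 5932 of all tested features.

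Within each group the relation had the same sign in nearly all genes. Within 10y-noCHF all 10 slopes were below 0 and 2 were called lower (TGFB2 and TGFB3), beside 5.47% of all features. Within 10y-MMVD-CHF 9 slopes were below 0, that of TGFBR2 was 0.01 (SE 0.027), and 4 were called lower (TGFB2, TGFB3, LTBP3 and LTBP4), beside 10.1% of all features. With the marker mean as a covariate the CHF log2 fold change of TGFB3 was 0.24 (SE 0.12, edgeR p = 0.0607, FDR = 0.668), and 0 of 10 genes were called.

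**Figure D3:**
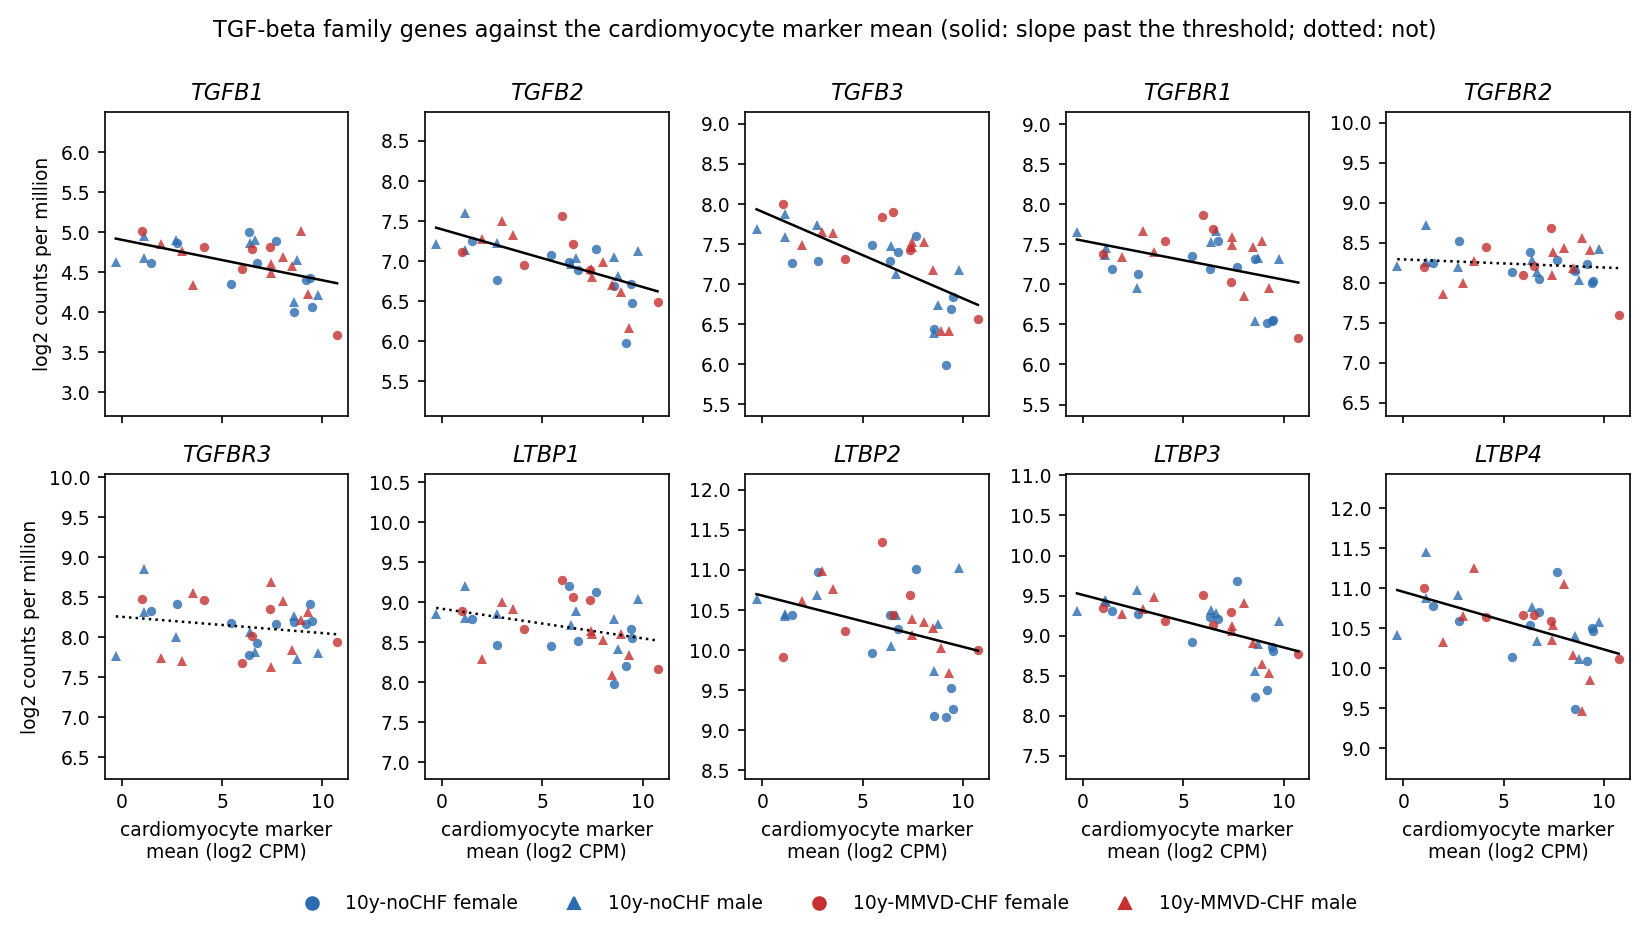
Level of each gene (log2 CPM) against the cardiomyocyte marker mean (log2 CPM) in 34 dogs, each panel spanning the same height. Solid lines are slopes past the threshold, in 7 genes, and dotted lines those that were not, in TGFBR2, TGFBR3 and LTBP1; TGFB3 falls most steeply, by 0.108 log2 units per unit.

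The relations among the 10 genes over the 34 dogs were examined for all 45 pairs, after removing the means of the 4 groups of CHF status and sex from log2 CPM (permutation within these groups, 100000 resamples, two-sided, Benjamini-Hochberg over the 45 pairs). Spearman's rho was above 0 in 39 pairs with a median of 0.337, and 22 pairs had an adjusted p below 0.1, all with rho above 0. All genes come from the same libraries, so cell composition and scaling are shared by every pair. Pairs of other features were not tested in this way, so no share over all features stands beside the 22 pairs. Whether they exceed what other genes show was not tested.

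The ligands TGFB2 and TGFB3 and the LTBP genes made up the strongest pairs. The highest rho was that of LTBP3 and LTBP4, at 0.861 (Pearson r = 0.827, permutation p = 1e-05 for both, the smallest the permutations can give, adjusted p = 9.0e-05 for rho and 6.4e-05 for r). It was 0.858 within 10y-noCHF and 0.846 within 10y-MMVD-CHF. Without the 2 dogs farthest from the median log2 CPM of LTBP3, taken before the group means were removed, r was 0.802. In each pair these 2 dogs were set by the gene that comes first in the opening sentence. LTBP2 and LTBP3 had a rho of 0.80 (r = 0.802, permutation p = 1e-05 for both, adjusted p = 9.0e-05 and 6.4e-05), with 0.853 and 0.689 within the groups and r = 0.750 without the 2 dogs. TGFB2 and TGFB3 had a rho of 0.758 (r = 0.779, permutation p = 2.0e-05 and 1e-05, adjusted p = 0.00013 and 6.4e-05), with 0.767 and 0.846 within the groups and r = 0.695 without the 2 dogs. With the slope on the marker mean also removed, the rho of these pairs was 0.758, 0.757 and 0.570.

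The lowest values all involved the co-receptor TGFBR3. The rank correlation was -0.32 with LTBP2 (r = -0.27, permutation p = 0.0532 and 0.0911, adjusted p = 0.104 and 0.128), -0.27 with TGFBR1 (r = -0.22, permutation p = 0.131 and 0.224, adjusted p = 0.190 and 0.296) and -0.12 with TGFB2 (r = -0.04, permutation p = 0.537 and 0.815, adjusted p = 0.640 and 0.893). None of these passed. Without the 2 farthest dogs r was -0.31, -0.33 and -0.0021. After the slope on the marker mean was also removed, the rho of TGFBR3 was -0.46 with LTBP2 (permutation p = 0.00465, adjusted p = 0.0149) and -0.37 with TGFBR1 (permutation p = 0.0361, adjusted p = 0.0904). Within the groups rho was -0.28 and -0.36 for TGFBR3 with LTBP2 and -0.30 and -0.29 for TGFBR3 with TGFBR1, in 10y-noCHF and 10y-MMVD-CHF.

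Some pairs differed in size between the groups, and these were picked after their values were seen. The rho of TGFB1 was 0.828 with LTBP3, 0.684 with LTBP2 and 0.598 with LTBP4 within 10y-noCHF, and 0.068, -0.0071 and -0.011 within 10y-MMVD-CHF. Over all dogs the rho of TGFB1 with LTBP3 was 0.525 (r = 0.589, permutation p = 0.00308 and 0.00038, adjusted p = 0.00866 and 0.00138), and r was 0.49 without the 2 dogs. With the slope on the marker mean also removed, the rho of TGFB1 over all dogs was 0.347 with LTBP3, 0.304 with LTBP2 and 0.153 with LTBP4. None of these passed (permutation, adjusted p = 0.133, 0.193 and 0.517). TGFBR2 and TGFBR3 had a rho of 0.140 within 10y-noCHF and 0.654 within 10y-MMVD-CHF. These differences between the groups were not tested.

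**Figure D4:**
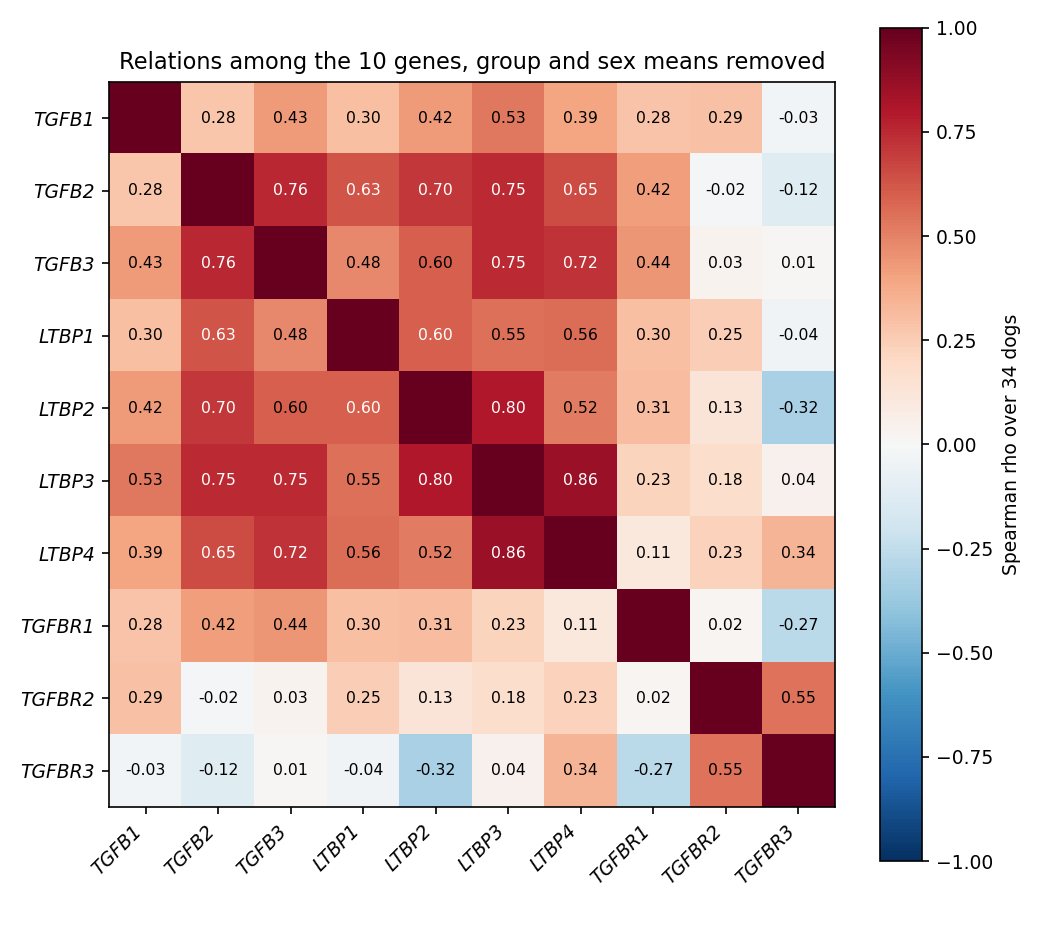
Spearman's rho over 34 dogs for each pair of the 10 genes after the means of the 4 groups of CHF status and sex were removed, on a colour scale from -1 to 1. TGFB2, TGFB3 and LTBP1 to LTBP4 form a block with rho from 0.483 to 0.861, and the row of TGFBR3 holds the lowest value, -0.32.

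The features most alike to each gene over dogs were listed from 16171 features with a mean of at least 1 CPM, by rho on the same residuals and as a description. LTBP3 was most like BGN, the small proteoglycan biglycan (rho = 0.947), followed by PODNL1 (0.923) and PCOLCE, an enhancer of procollagen C-proteinase (0.910). LTBP4 was most like PODN (0.932), OLFML3 (0.925) and PTPRS (0.906). LTBP2 was most like MYO1D (0.912), COL1A1 (0.901) and SPARC (0.895), the latter being a type I collagen chain and a collagen-binding matricellular protein. LTBP1 was most like COL5A1 (0.774), AGRN (0.768) and FBN1 (0.766), the last of which encodes fibrillin-1.

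For the ligands, TGFB2 was most like BICC1 (0.884), CNN3 (0.847) and AATK (0.841), TGFB3 like SYT11 (0.884), SCRN1 (0.881) and CA13 (0.879), and TGFB1 like CCND3, a D-type cyclin (0.809), PFKP (0.794) and SHKBP1 (0.785). For the receptors, TGFBR1 was like COPB1 (0.834) and C5orf24 (0.834), and TGFBR2 like IL13RA1 (0.784), FAM107A (0.739) and ITGAD (0.732). TGFBR3 had the lowest values, with SH3BP5-AS1 (0.699), SH3BP5 (0.684) and HNRNPUL1 (0.675), and without strand the reads of SH3BP5 and its antisense partner cannot be told apart. With the marker mean also removed, rho stayed at 0.925 for LTBP3 with BGN and at 0.878 for LTBP4 with PODN, and was 0.750 for TGFB2 with BICC1.

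The rest of the pathway was examined through 4 lists. Over all features edgeR called 0.118% in either direction, and 6.31% had an unadjusted edgeR p below 0.05. Of 20 latent complex partners and activators 0 were called in either direction with edgeR and 0 had an unadjusted p below 0.05, and the estimates were above 0 in 10 and below 0 in 10 (median 0.0012, against 0.0076 over all features). The smallest p belonged to FBN1, the microfibril protein to which LTBPs attach, with 686 CPM without and 800 CPM with CHF on average (log2 fold change 0.22, SE 0.13, edgeR p = 0.107, FDR = 0.848). MFAP5, another microfibril protein, followed with a log2 fold change of -0.18 (SE 0.11, edgeR p = 0.112, FDR = 0.848). Of 12 co-receptors and extracellular binders 0 were called with edgeR and 0 had an unadjusted p below 0.05, with 6 estimates above and 6 below 0 (median 0.0044). DCN, the proteoglycan decorin that binds TGF-beta, had a log2 fold change of -0.23 (SE 0.11, edgeR p = 0.0511, FDR = 0.786), and the co-receptor CD109 of -0.29 (SE 0.15, edgeR p = 0.0621, FDR = 0.803).

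Of 20 SMADs and intracellular regulators 0 were called with edgeR, and 16 estimates were above and 4 below 0 (median 0.048). With edgeR 1 of the 20 had an unadjusted p below 0.05, where 6.31% of all features passed. That gene was TGIF1, a transcriptional repressor of SMAD targets, with a log2 fold change of -0.29 (SE 0.14, edgeR p = 0.0397, FDR = 0.778). SKIL, a SMAD corepressor, had a log2 fold change of 0.15 (SE 0.073, edgeR p = 0.0509, FDR = 0.786). Of 22 TGF-beta responsive genes 0 were called with edgeR and 1 was called lower with DESeq2, beside 0.118% and 0.327% of all features called in either direction. With edgeR 3 of the 22 had an unadjusted p below 0.05, where 6.31% of all features passed, and all 3 of these estimates were below 0. Over the list 12 estimates were above and 10 below 0 (median 0.032).

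CDKN1A, a cyclin-dependent kinase inhibitor of the responsive list, was 92.9 ± 25 CPM (SD, n = 19) in 10y-noCHF and 76.8 ± 14.9 CPM (SD, n = 15) in 10y-MMVD-CHF. The log2 fold change of CDKN1A was -0.30 (SE 0.11, edgeR p = 0.0120, FDR = 0.614). Of the 22 responsive genes 11 were called lower with the cardiomyocyte marker mean and 0 higher (median slope -0.054), beside 18.3% of all features called lower and 18.9% called higher. Of the 20 SMADs and intracellular regulators 4 were called lower and 5 higher (median slope -0.0041), close to the shares over all features. Of the 20 latent complex partners and activators 8 were called lower and 4 higher (median slope -0.0088). Of the 12 co-receptors and extracellular binders 5 were called lower and 1 higher (median slope -0.034).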

How the data were processed

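RNA was isolated from excised mitral valves, poly-A selected and sequenced as paired reads. Reads had been aligned to canFam4 by STAR. The authors deposited un-normalized read counts, obtained by featureCounts 2.0.3 on canine RefSeq features and aligned human XenoRefSeq features. The recorded command assigned a read to every feature it overlaps, used no strand and counted the reads of a pair separately, so 71% of the counts above 0 were even, and counting precision is that of pairs. Groups and sexes follow the labels, which give no batch or date; 1 column of counts that matches no sample was not used.

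Of 23768 features, those whose counts over the 34 dogs summed to 100 or more entered the tests (19568). The test was edgeR 4.0.16 in R 4.3.3 (quasi-likelihood, TMM, sex and CHF status, two-sided, FDR threshold 0.1), with SEs approximated from the F statistic and 95% intervals from them. The interaction and the slope on the cardiomyocyte marker mean (prior count 2) used the same model with a further term. DESeq2 1.42.0, limma 3.58.1 voom with sample weights, other normalizations, filters and thresholds, and leaving out each dog were alternatives. The edgeR fits for CHF, sex, the interaction and the slope were tested on simulated data. So were the DESeq2 and limma voom fits for CHF and the permutation of pairs. The simulated CHF changes were larger than the CHF differences of the 10 genes. Genes named are the 10 members, the 2 smallest p values and any call of each pathway list, the 3 most alike features of each member and the 3 highest and lowest pairs. The members and lists were chosen with earlier results of these data known. RPKM used the feature length of the deposited table. Some genes that the rule would name are not reported here.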

Additional observations from a re-analysis of the deposited data

Results flagged for a closer look

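Each of the 10 genes was examined in each of the 4 groups of CHF status and sex for a dog far from the others (Dixon's test at the 95% level). Of these 40 tests 4 stood out, where chance gives about 2 (1 in 20), and all 4 were the highest value of the same dog, the 10y-noCHF male CAV1939. It held 194 CPM of TGFB2, 421 CPM of TGFBR2, 463 CPM of TGFBR3 and 2806 CPM of LTBP4, where the next highest of the 9 dogs held 149.8, 342, 319.6 and 1923 CPM. Several of the 10 genes vary together over dogs, so the 4 tests are not separate observations to set against the 2. The cardiomyocyte marker mean of CAV1939 was 1.13, place 31 of 34 from the highest, and its part in these values was not tested. Without this dog the CHF log2 fold change of TGFBR3 was 0.10 and that of LTBP4 0.02, and 0 of the 10 genes were called.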

How the results depend on the processing

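No setting run for CHF called any of the 10 genes or gave one an unadjusted p below 0.05. For sex and for the interaction 0 were called with limma voom, RLE, upper-quartile normalization, filterByExpr and an FDR threshold of 0.05, the settings run for them. The CHF estimate of TGFB3, TGFBR1 and LTBP2 kept its sign under every setting, with ranges of 0.13 to 0.24, 0.096 to 0.22 and 0.019 to 0.19. Estimates close to 0 changed sign without a call: TGFB1 was -0.0040 with its human XenoRefSeq feature, TGFB2 -0.038 and LTBP3 -0.011 with limma voom, TGFBR2 -0.012 and LTBP3 -0.0021 with upper-quartile normalization, and LTBP1 0.032 without both CAV1047 and CAV614, a setting chosen after seeing the data. Leaving out 1 dog at a time gave ranges of -0.012 to 0.081 for TGFB1, -0.052 to 0.058 for TGFB2, -0.046 to 0.044 for TGFBR2, -0.011 to 0.097 for TGFBR3, -0.085 to 0.0047 for LTBP1, -0.026 to 0.049 for LTBP3 and -0.11 to 0.020 for LTBP4. The calls for the cardiomyocyte marker mean ranged from 5 (FDR threshold of 0.05, or without CAV1047) to 8 (limma voom or upper-quartile normalization, or without CAV1041, CAV614 or CAV865, each with LTBP1 added). Over all tested features 7301 were called in the main setting, against 5868 at the FDR threshold of 0.05 and 5920 without CAV1047. In the settings with 8 they were from 6819 (without CAV865) to 8374 (upper-quartile normalization). Pairs of genes with an adjusted p below 0.1 were 18 with the marker mean removed, 16 of them with rho above 0, and 23 with RLE size factors, 22 of them with rho above 0. DESeq2 called 1 gene of the pathway lists, among the TGF-beta responsive genes, beside 0.327% of all features. The place of TGFB1 by level moved to 7 with its human XenoRefSeq feature, which is longer. No paired analysis was possible because every dog has its own number and is in 1 group only.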
